A study of Homo sapiens with 24 samples.

Results

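The first 90 min after transcription is blocked show which RNAs of a cell are lost fastest. They were followed here in HMLE cells, an established line of immortalized human mammary epithelial cells, made to express LacZ, which codes for a bacterial enzyme, as the control line. Per the labels, both groups were the same LacZ line in medium with EGF, insulin and hydrocortisone: 3 libraries after 90 min of actinomycin D at 10 µg/mL, set against 3 libraries at 0 min. They are 6 of the 24 libraries of the study, which also sampled LacZ cells at 180 and 360 min and a line that overexpressed RBMS3, an RNA-binding protein, at the same 4 times. RNA was extracted with a column kit and sequenced by QuantSeq, which primes at poly(A) and reads the 3′ end of a transcript. All genes of the table were taken. Of 38849, the 12096 with a mean normalized count of at least 10 over the 24 libraries were tested. Nothing in the labels says whether replicates were separate cultures or whether the line is 1 clone, so the p-values speak for the spread of these libraries, part or all of which may be technical.

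Actinomycin D binds DNA and stops RNA polymerases, so a transcript that is no longer made falls at the rate at which the cell degrades it. Short-lived mRNAs are typical of genes that cells must switch off quickly, such as transcription factors and inhibitors of signalling, while mRNAs of ribosomes and metabolism are known to be long-lived. Values are shares of a library in effect: with total RNA per cell unmeasured, a gene can be higher at 90 min because it gained relative to other transcripts. In bulk samples, fewer cells of a type and less RNA per cell cannot be told apart.

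Normalized counts of the 6 libraries summed to 6638187 to 7057240, with 14884 to 15697 genes above 0. The deposited transcript files of all 24 libraries hold 4426445 to 9856338 estimated reads each, and those named for the 6 hold 5992487 to 7916752. Markers fixed for the line were present at both times. EPCAM, an epithelial adhesion molecule, was 1868, 1872 and 2019 in the 90 min libraries and 1687, 1747 and 1714 in the 0 min libraries. KRT5, a basal keratin, was 4422, 3538 and 3887 at 90 min and 3212, 1503 and 3392 at 0 min. Of 18 leukocyte and endothelial markers, 11 were at 0 in all 6 libraries, and the list summed to 48.5 to 63.6 at 90 min and 44.5 to 48.2 at 0 min. One library stood apart. Replicate 2 at 0 min correlated across genes with replicates 1 and 3 at a Pearson r of 0.911 and 0.909, against 0.954 between those replicates and 0.949 to 0.952 among the 90 min libraries. Of the 106 genes named by rule, 26 did not pass without it. For those given here this is stated beside the value, and for the gene lists the alternative was chosen after seeing the data.

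At 90 min 331 of 12096 genes were lower (2.74%) and 416 were higher (3.44%) at an adjusted p under 0.05 in limma. The falls were the larger changes. Among genes that passed, 189 fell by more than 1 on the log2 scale (1.56% of those tested), 73 of them by more than 2 and 41 by more than 3, whereas 41 rose by more than 1 (0.339%) and 8 by more than 2. The median change was −1.15 among genes that fell and 0.53 among those that rose, against 0.0022 over all genes tested. Without replicate 2 at 0 min, 213 genes were lower (1.76%) and 339 higher (2.8%), and 174 and 244 of them were called in the same direction with it. With the ribosomal protein genes used to scale the libraries, the median of all genes was −0.277 and the calls were 1356 lower and 75 higher, so that 94.8% of calls were falls against 44.3% as deposited. With libraries scaled to equal totals 397 were lower and 287 higher, 58% of calls.

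**Figure D1:**
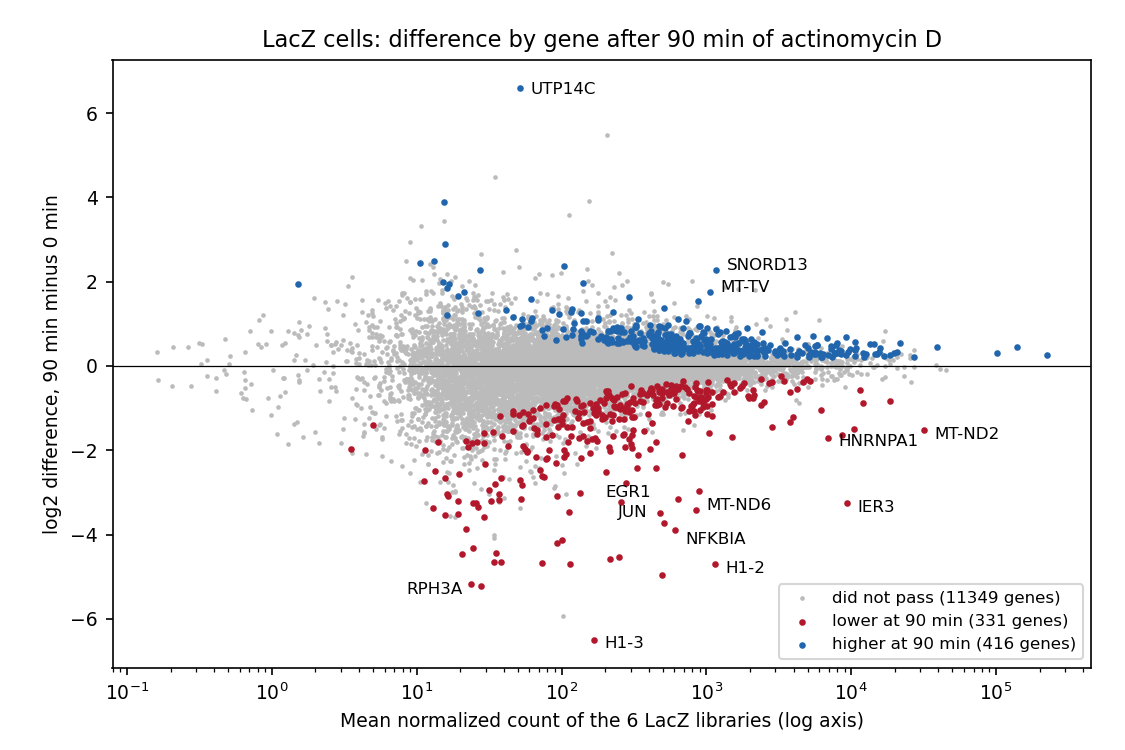
Each point is 1 of the 12096 genes tested, with the mean normalized count of the 6 LacZ libraries on a log axis and the log2 difference, 90 min minus 0 min, on the vertical axis. Red points are the 331 genes lower and blue points the 416 genes higher at 90 min; the abundant genes with large falls include IER3, H1-2, MT-ND6, MT-ND2 and HNRNPA1.

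Histone mRNAs fell the most. Replication-dependent histones package newly made DNA, and their mRNAs are unusual in that most end in a conserved stem-loop and not in a poly(A) tail. They are degraded quickly when DNA synthesis stops. Because the libraries were primed at poly(A), the values cover the histone molecules that such a primer caught. The stem-loop is printed for 3 genes that fell, H2AC13, H2AC8 and H2BC4, and for H2AC6, which did not pass (29.9, 31.6 and 28.7 at 90 min, 18.6, 19.97 and 26.03 at 0 min), with the stem and loop in capitals and 5 bases on either side, from GENCODE release 29 transcripts (GRCh38) read 5′ to 3′.
H2AC13 (chr6:27808642-27808667, plus strand, 3′ UTR, 39 bases before the transcript end): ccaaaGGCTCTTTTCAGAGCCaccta
H2AC8 (chr6:26217412-26217437, plus strand, 3′ UTR, 51 bases before the end): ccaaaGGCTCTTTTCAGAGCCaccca
H2BC4 (chr6:26123467-26123492, minus strand, 3′ UTR, 116 bases before the end): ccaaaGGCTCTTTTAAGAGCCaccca
H2AC6 (chr6:26124664-26124689, plus strand, 3′ UTR, 1114 bases before the end): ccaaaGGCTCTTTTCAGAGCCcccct
The stem-loop was the same run of letters in H2AC13, H2AC8 and H2AC6, while the annotated transcript of H2AC6 went on furthest beyond it among the 4. Other histones with the stem-loop that did not pass varied widely in this length. It was 6 bases in H4C11, 39 in H2BC5, 194 in H4C14, 377 in H2BC15 and 690 in H4C15. The histone stem-loop was searched on the RNA strand only, and 16 of 11172 tested genes with an annotated 3′ UTR held it (0.143%). Of 22 histone genes tested, 19 are annotated as coding and 12 have a 3′ UTR there. The stem-loop was in 9 of these 12, and in 3 of the 5 that fell.

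Of the 22 histones, 11 fell and 0 rose in limma, or 14 and 0 at an unadjusted p under 0.05, with a median log2 difference of −2.80. The same numbers fell and rose without replicate 2. The linker histone H1-2, which binds the DNA between nucleosomes, had 79.2, 113 and 60.9 normalized counts at 90 min, against 1926, 2712 and 1942 at 0 min, a log2 difference of −4.71 ± 0.25 (SE, limma adjusted p = 1.6e-10). All 3 libraries at 90 min thus lay below all 3 at 0 min, which the rule for naming genes required, and replicate 2 was the highest. H1-3, another linker histone, fell furthest, to 2.86, 1.16 and 4.91 at 90 min, against 292, 392 and 316 at 0 min (−6.50 ± 0.71, adjusted p = 6.1e-06). Among core histones, which form the nucleosome itself, H2AC13 was 35.3, 27.8 and 24.5 at 90 min and 805, 1271 and 803 at 0 min (−4.97 ± 0.40, adjusted p = 8.0e-08). The most abundant histone, H4C3, fell less: it was 3537, 4828 and 4044 at 90 min, against 11065, 16157 and 11941 at 0 min (−1.65 ± 0.13, adjusted p = 5.1e-08). H1-1 (−5.16, named after its value was seen), H1-5 (−4.67), H2AC8 (−4.66), H2AC14 (−4.59), H1-4 (−4.54), H2AC20 (−4.13) and H2BC4 (−3.46) also fell. Members that did not pass were mostly low or uneven. H4C11 was 16.2, 25.5 and 23.6 at 90 min and 49.7, 71.7 and 57.3 at 0 min (adjusted p = 0.1), and H2AC18 was 56.3, 40.5 and 29.5 against 265, 417 and 0 (adjusted p = 0.97). Histone genes are near-identical copies, so the split of reads among them is uncertain. H2AC19, a near copy of H2AC18 named after its values were seen, was 0, 0 and 0 at 90 min and 0, 0 and 238 at 0 min, with its 1 value above 0 in the library where H2AC18 was listed at 0.

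**Figure D2:**
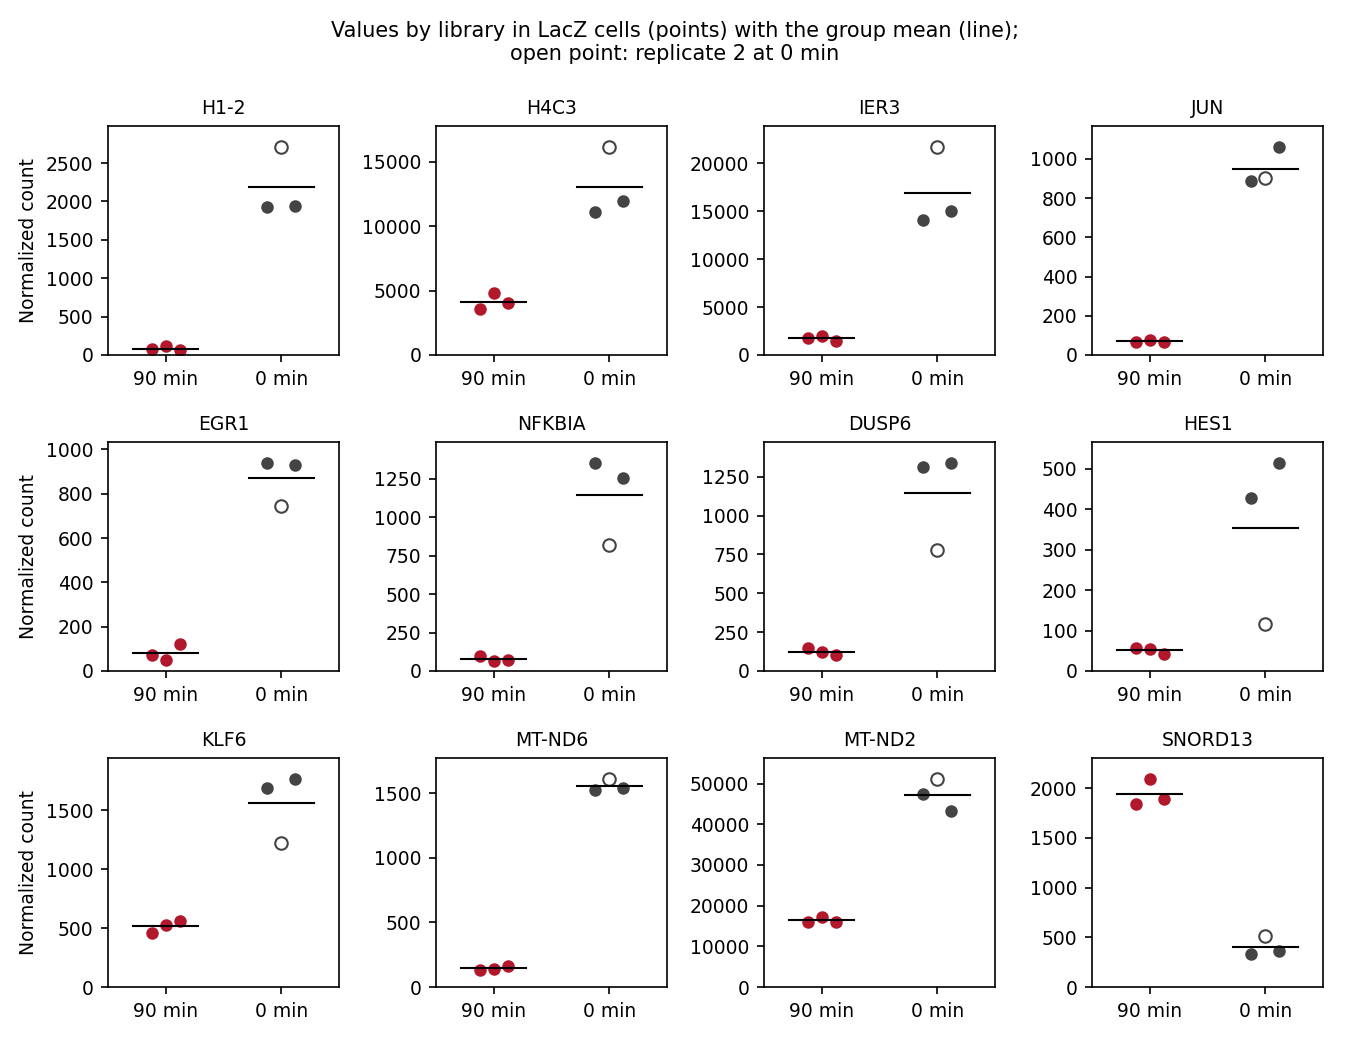
Normalized counts of 12 genes in each LacZ library, 90 min on the left and 0 min on the right, with a line at the mean of 3 and an open point for replicate 2 at 0 min. Genes named by rule had to have groups that do not overlap. For the first 11 genes every 90 min point lies below every 0 min point, and for SNORD13 above it; the open point is the highest of the 0 min points in H1-2, H4C3, IER3, MT-ND6, MT-ND2 and SNORD13 and the lowest in NFKBIA, DUSP6, HES1, EGR1 and KLF6.

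Immediate early genes were the next group. They are switched on within minutes by growth factors and code for transcription factors and signalling proteins whose mRNAs turn over fast. Beside this list and those that follow, 2.74% of all genes tested were lower and 3.44% higher. Of 14 tested genes of the IER and EGR families and their relatives, 8 fell and 0 rose (10 and 0 unadjusted, median −1.30), and 9 fell without replicate 2. IER3, which modulates survival signalling, was the most abundant at 0 min, at 1796, 2021 and 1436 in the 90 min libraries and 14043, 21717 and 15068 in the 0 min libraries (−3.26 ± 0.25, adjusted p = 4.6e-08). EGR1, a zinc finger factor, was 70.6, 50.9 and 122 at 90 min and 939.8, 745 and 931 at 0 min (−3.50 ± 0.40, adjusted p = 1.2e-05). IER2, a nuclear protein, was 179, 220.0 and 211 at 90 min, against 1404, 1689 and 1670.3 at 0 min (−2.96 ± 0.26, adjusted p = 3.1e-07). No library of one time overlapped the other in these 3 genes, which the rule for naming them required. Of the 12096 genes tested, 1489 had all 90 min libraries below all 0 min libraries (12.3%). TRIB1, a pseudokinase that directs protein degradation, fell to 8.59, 5.21 and 14.1 at 90 min, against 157, 178 and 195 at 0 min (−4.20, adjusted p = 0.0039). PHLDA2 did not pass, at 2046, 2013 and 1957 in the 90 min and 1931, 2017 and 2248 in the 0 min libraries.

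AP-1 is a transcription factor made of pairs of JUN and FOS family proteins. Of 10 tested subunits and ATF3, 2 fell and 0 rose (4 and 0 unadjusted). JUN was 68.7, 74.1 and 67.7 at 90 min, against 885, 902 and 1062 at 0 min (−3.74 ± 0.30, adjusted p = 8.7e-08). JUNB fell to 95.4, 104 and 88.4 at 90 min, against 730.1, 263 and 714 at 0 min (−2.42 ± 0.43, adjusted p = 0.0014), and its replicate 2 at 0 min lay nearer the 90 min libraries than the other 0 min libraries did. The abundant FOS-family member FOSL1 was 923, 876 and 867 at 90 min and 1007, 776 and 1043 at 0 min (−0.07, adjusted p = 0.81). Its groups overlapped. In the KLF family of zinc finger factors, 2 of 10 fell, KLF6 (459, 525 and 558 at 90 min, 1687, 1219 and 1766 at 0 min, −1.58) and KLF9 (−0.91). KLF5 did not pass, at 1598, 172 and 2633 against 293, 317 and 323, and its 90 min libraries lay on both sides of those at 0 min.

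Some inhibitors that close a signalling loop fell, while most did not pass. NFKBIA codes for IκBα, which holds NF-κB in the cytoplasm, and NF-κB in turn drives its transcription. It was 94.4, 63.4 and 68.7 at 90 min, against 1353, 816 and 1254 at 0 min (−3.89 ± 0.34, adjusted p = 2.8e-07). Its list of NF-κB factors and feedback inhibitors had 2 falls and 0 rises of 17 (3 and 0 unadjusted), the other being NFKBIZ (−3.88), which was named after its value was seen. TNIP1, a member that did not pass, was 1118, 1146 and 893 at 90 min and 1026, 1327 and 966 at 0 min. DUSP6, the phosphatase that switches off ERK, was 146, 124 and 106 at 90 min and 1312, 777 and 1339.7 at 0 min (−3.15 ± 0.39, adjusted p = 2.7e-05). With DUSP4 (−0.86) and DUSP1 (−3.03, named after its value was seen), 3 of 13 ERK feedback regulators fell and 0 rose (5 and 1 unadjusted), and ERRFI1, an inhibitor of the EGF receptor, did not pass (378, 282 and 328 against 513, 325 and 502). ID1, which blocks differentiation factors by pairing with them, was 217, 202 and 149.9 at 90 min and 839, 367 and 910.3 at 0 min (−1.80 ± 0.24, adjusted p = 7.0e-05), and SMAD7 (−3.24, also named after its value was seen) was the other fall among 6 ID proteins and inhibitory SMADs. The EGF receptor ligands HBEGF (639, 625 and 599.6 at 90 min, 1283, 1609.7 and 1269.5 at 0 min, −1.15) and AREG (−0.36) fell, while the receptor EGFR was called higher (0.35, adjusted p = 0.027) but did not pass without replicate 2 (adjusted p = 0.087) or at equal totals. HBEGF was highest at 0 min in replicate 2, AREG lowest.

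Developmental transcription factors were called in part. Of 22 SOX, FOX, IRX and HES factors, 6 fell and 0 rose (7 and 0 unadjusted, median −0.65). HES1, the effector of Notch signalling, was 56.9, 53.6 and 41.9 at 90 min and 428, 115 and 515 at 0 min (−2.52 ± 0.63, adjusted p = 0.02). IRX2, a homeobox factor, was 942, 907 and 869.5 at 90 min, against 1485, 1517 and 1505 at 0 min (−0.73 ± 0.12, adjusted p = 0.001), with little spread in either group. FOXC1 (−1.25), a forkhead factor, and its relative FOXC2 (−1.08), which is also linked to the epithelial-mesenchymal transition, fell by just over 2-fold, and FOXC2 did not pass without replicate 2 (adjusted p = 0.08). SNAI2, a repressor of epithelial genes, was the only 1 of 8 such EMT factors that fell, at 162, 153 and 134 in the 90 min and 615, 215 and 583 in the 0 min libraries (−1.51, adjusted p = 0.018). TCF4 of the same list did not pass (63.4, 64.02 and 53.2 against 46.4, 93.9 and 78.6). Zinc finger genes named ZNF, many of them KRAB repressors, had a median of −0.51 over 335 tested. Of these, 15 fell and 2 rose (76 and 6 unadjusted), where 2.74% of all genes tested were lower and 3.44% higher. Those named had low counts: ZNF574 was 5.73, 0 and 11.8 at 90 min, against 58.01, 60.4 and 39.5 at 0 min (−3.58), and ZNF654 was 37.5, 40.1 and 20.9 against 128, 154 and 110.0 (adjusted p = 0.0066). Without replicate 2, 8 of the 335 fell.

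Among 21 targets of p53, 4 fell and 0 rose (6 and 0 unadjusted), where 2.74% of all genes tested were lower. GADD45B, a stress protein, was 58.4, 32.7 and 47.5 at 90 min and 331, 116 and 235 at 0 min (−2.19, adjusted p = 2.7e-04). PLK2, a kinase of the stress response, was 92.9, 97.97 and 68.96 against 397, 206 and 420.2 (−1.91, adjusted p = 0.0042), and SESN2 (−1.79) and GADD45A (−0.93) were the others. CDKN1A, the cell cycle inhibitor p21, was not among them, at 880.5, 1002 and 793 in the 90 min and 887, 997 and 876 in the 0 min libraries (−0.05, adjusted p = 0.88). DDIT4, which restrains mTOR and is induced by stress, fell to 159, 125 and 86.4 at 90 min, against 655, 325 and 658 at 0 min (−2.11). With SESN2 and ATF4 (−0.41) it made 3 falls among 20 genes of the unfolded protein response, where DNAJC3 was called higher (0.53). Without replicate 2, ATF4 (−0.26, adjusted p = 0.1) and DNAJC3 (adjusted p = 0.1) did not pass, nor did DNAJC3 at equal totals. IRF1, an interferon-induced factor, fell (−1.98, adjusted p = 0.033) and did not pass without replicate 2 (adjusted p = 0.13). It was the 1 fall among 27 interferon response genes, near the share of all genes that were lower. Of 16 chemokines and inflammatory cytokines only CXCL2 fell (3.82, 6.95 and 0 at 90 min, 51.4, 6.14 and 85.99 at 0 min, adjusted p = 0.04), which was named after its value was seen, and the abundant IL1B did not pass (302, 295 and 276 against 534, 399.7 and 539).

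AU-rich elements in the 3′ UTR recruit proteins such as ZFP36 that speed the removal of the poly(A) tail, and are known from many early response mRNAs. The nonamer TTATTTATT, which contains the pentamer ATTTA, was searched on the RNA strand of the longest annotated 3′ UTR of each gene. Of 42 named genes that fell and have one, histones left out, 4 held it. The site is printed for 3 of them with the nonamer in capitals and 10 bases on either side, from GENCODE release 29 transcripts (GRCh38) read 5′ to 3′.
PLK2 (chr5:58454066-58454094, minus strand, 3′ UTR, nonamer 499 bases after the stop codon): aataaactttTTATTTATTacagcccaaa
ZFP36L1 (chr14:68788077-68788105, minus strand, 3′ UTR, nonamer 2393 bases after the stop codon): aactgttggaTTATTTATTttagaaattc
INHBA (chr7:41685700-41685728, minus strand, 3′ UTR, nonamer 3932 bases after the stop codon, 1 of 2 sites): agctatattaTTATTTATTttttatgcat
ZFP36L1, which itself binds such elements, was 672, 703 and 694 at 90 min and 2748, 1386 and 2832 at 0 min (−1.68 ± 0.18, adjusted p = 6.0e-06). INHBA, the activin subunit, was 1649, 1802 and 1636 against 2726, 2625 and 2207 (−0.57, adjusted p = 0.028), and did not pass without replicate 2 (adjusted p = 0.084). Over all genes the nonamer had a like share in falling and in all genes. It was in 28 of 278 genes that fell and have an annotated 3′ UTR (10.1%, 95% Wilson interval 7.06% to 14.2%) and in 9.88% of the 11172 tested, against 6.35% of the 394 that rose. Among genes with a 3′ UTR of 500 to 1500 bases the shares were 4.85% of those that fell and 5.19% of all. The pentamer stood at a median of 1.74 per kb in genes that fell and 1.73 in all. The intervals cover counting error only.

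Exon number and transcript length were read from the same annotation. Genes lower by more than 1 on the log2 scale had a median of 6 exons, against 9 for all genes tested with a 3′ UTR. Genes that rose also had a median of 6, and all genes that fell a median of 7, so a lower exon number was not particular to falls. Of 198 genes with 1 exon, 18 fell (9.09%) and 1 rose, against 260 of 10974 genes with more exons (2.37%). Genes that rose had shorter annotated transcripts, with a median of 2397 bases against 3365 for all. These are descriptions of the annotated transcript, which may not be the one the cells used.

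Replicate 2 at 0 min touched the labile genes unevenly. In the fit without it, 141 genes fell by more than 1 on the log2 scale. Its log2 value lay nearer the 90 min mean than the mean of 0 min replicates 1 and 3 in 29 of them. In 68 it lay beyond that mean of replicates 1 and 3, away from 90 min. All 11 histones that fell were of the second kind. This does not place replicate 2 beyond each of the other 0 min libraries: H1-1 was 31.5, 53.2 and 55.3 in replicates 1, 2 and 3. CCN1, a matrix protein induced by YAP and serum, was 330.3, 299 and 291 at 90 min, against 1903, 145 and 1969.5 at 0 min. The log2 difference of CCN1 was −1.41 (adjusted p = 0.19), or −2.66 without replicate 2 (adjusted p = 2.8e-05). The survival factor MCL1 had the same pattern, at 932, 906 and 877 in the 90 min and 1878, 932 and 1836 in the 0 min libraries (adjusted p = 0.073, and 0.0035 without replicate 2). So did ZFP36L2, a relative of ZFP36L1, at 593, 491 and 399 against 1320.2, 277 and 1246 (adjusted p = 0.29 and 5.1e-06), and ID3, at 252, 155 and 239.6 against 558, 128 and 531 (adjusted p = 0.3 and 5.9e-04). MYC, a growth regulator named after its values were seen, was 32.1, 12.9 and 13.7 at 90 min and 246, 51.04 and 289 at 0 min (adjusted p = 0.06, and 0.033 without replicate 2). For each of these genes replicates 1 and 3 at 0 min lay above all 90 min libraries. Whatever set replicate 2 apart was not tested.

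**Figure D3:**
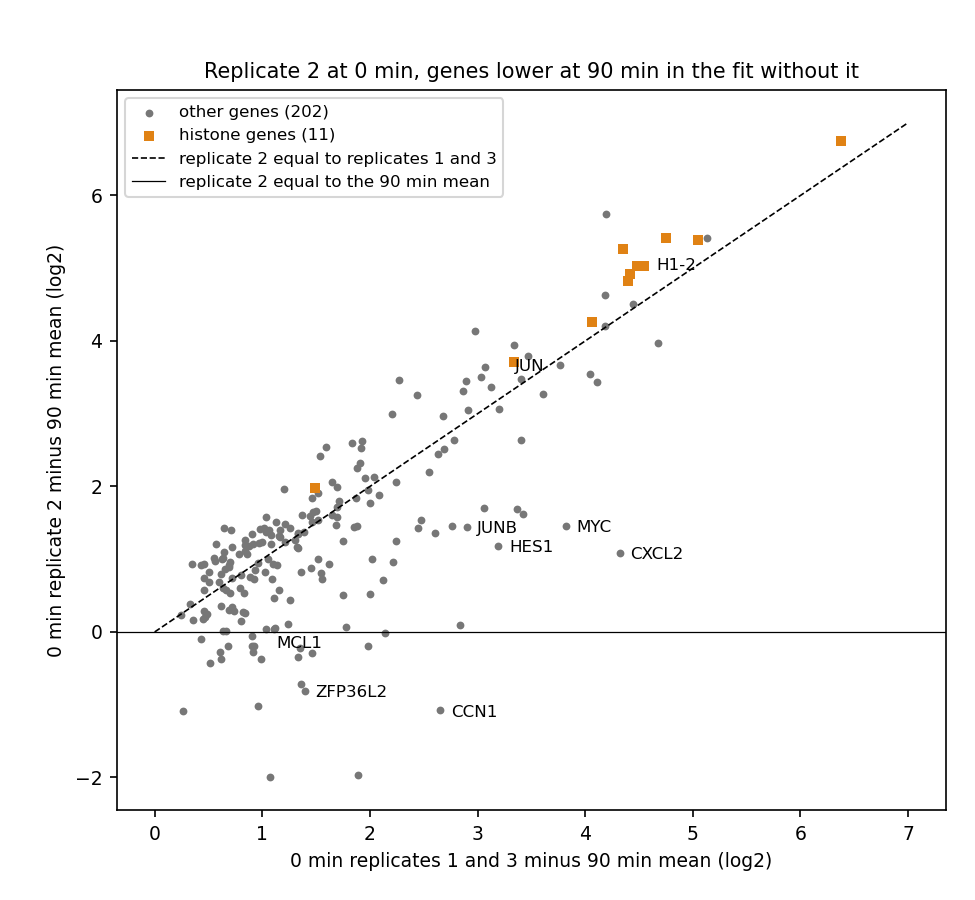
Each point is 1 of the 213 genes lower at 90 min in the fit without replicate 2 at 0 min, with replicates 1 and 3 minus the 90 min mean on the horizontal axis and replicate 2 minus the 90 min mean on the vertical axis, both in log2. The 11 histones (squares) lie above the dashed line of equal values, while CCN1, ZFP36L2, HES1, JUNB and MYC lie well below it.

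Mitochondrial transcripts were split. The mitochondrial genome is transcribed as long molecules from both strands and cut into mRNAs, tRNAs and rRNAs. Of its 13 protein-coding genes, 11 fell and 0 rose, or 13 and 0 at an unadjusted p under 0.05, with a median of −0.62, and 12 fell without replicate 2. MT-ND6, the only mRNA of the light strand, was 135, 137 and 162 at 90 min, against 1523, 1613 and 1542 at 0 min (−3.43 ± 0.24, adjusted p = 1.0e-08). MT-ND2, another subunit of complex I, was 15956, 17277 and 15868 against 47501, 51167 and 43222 (−1.53 ± 0.07, adjusted p = 7.3e-12). MT-ND3 fell to 6058, 5218 and 5070.0 at 90 min, against 14389, 16355 and 15149 at 0 min (−1.49, adjusted p = 3.5e-10), and MT-ND5 followed (−1.05). Subunits of complex I thus held the 4 largest falls. At the other end, MT-CO2 (−0.26, adjusted p = 0.18) and MT-ND4 (−0.18, adjusted p = 0.14) did not pass. MT-CO2 was 16984, 14290.0 and 14991 at 90 min and 21742, 14445 and 19830.0 at 0 min. MT-ND4L (−0.24) and MT-CO1 (−0.35) fell the least. Neighbouring genes that overlap, such as MT-ND4 and MT-ND4L or MT-ATP6 and MT-ATP8, can share reads, so their split is uncertain. Summed over the 13 genes, the mRNAs were 95359 to 103120 at 90 min and 165200 to 182440 at 0 min.

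Of 16 mitochondrial tRNAs tested, 5 fell and 5 rose. MT-TV was 1429.6, 1682 and 1762 at 90 min, against 461, 547 and 425 at 0 min (1.77 ± 0.17, adjusted p = 1.2e-06), and MT-TC was 731, 810.4 and 671 against 303, 245 and 304 (1.38 ± 0.17, adjusted p = 2.1e-05). MT-TN moved the other way, at 2040.4, 2290.0 and 2129.5 against 5369.5, 5510.5 and 5474 (−1.34, adjusted p = 6.2e-07), as did MT-TY (−1.48). Both rRNAs rose, MT-RNR1 by 0.31 and MT-RNR2 by 0.26. All but MT-TV and MT-TC were named after their values were seen. Mature tRNAs are too short for the usual library and lie next to mRNAs on either strand. No source used here gives the strand setting of the counting, so reads of a tRNA and of its neighbour or antisense partner cannot be told apart.

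Several of the largest falls were in genes of none of the lists above. RPH3A, an effector of Rab3 in vesicle release, was 0, 2.32 and 0 at 90 min and 53.04, 62.5 and 49.4 at 0 min (−5.22, adjusted p = 3.0e-05). SPATA13, a guanine nucleotide exchange factor, was 15.8, 6.38 and 2.03 against 97.4, 387 and 175 (−4.71), with 0 min libraries that differed by several fold. MIR222HG, the host transcript of the microRNAs miR-221 and miR-222, was 3.43, 0 and 5.30 against 91.97, 46.7 and 63.7 (−4.44), and the long noncoding RNA LINC00324 was 0.954, 0 and 10.8 against 56.4, 93.2 and 68.2 (−4.66). NINL, a centrosome protein, rested on replicate 2: it was 2.17, 0 and 4.46 at 90 min and 16.95, 128 and 6.74 at 0 min, and the adjusted p was 0.026 with that library and 0.15 without it. Of 448 annotated long noncoding RNAs tested, 16 fell (3.57%) and 2 rose (0.446%), against 2.74% and 3.44% of all genes tested. A list of 335 long intergenic and antisense RNAs picked by name had 6 falls and 1 rise (27 and 15 unadjusted).

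RNA-processing genes were mostly not called, with exceptions. HNRNPA1, an abundant splicing factor, was 3404, 3454 and 2891 at 90 min, against 11699, 10683 and 9351 at 0 min (−1.70 ± 0.27, adjusted p = 4.8e-04). It has many processed copies, so its count is uncertain. The splicing kinase CLK2 (−1.69) and SRSF10 (−0.56) were the other falls among 38 SR and hnRNP genes, where 0 rose (9 and 4 unadjusted). Without replicate 2 only 1 of the 38 fell, and CLK2 (adjusted p = 0.08) and SRSF10 (0.11) did not pass. Of 55 genes of mRNA decay and AU-rich binding, 3 fell and 0 rose (9 and 1 unadjusted), ZFP36L1 and BTG1 (−0.79) among them, and KHSRP did not pass (7547, 8233 and 7837 against 7386, 7735 and 8088). BTG1 did not pass without replicate 2 (adjusted p = 0.099). Among 31 host genes of small nucleolar RNAs and related noncoding RNAs, SNHG12 (189, 138 and 83.1 at 90 min, 456, 361 and 386 at 0 min, −1.62) and SNHG1 (559, 568 and 412 against 937, 1370.1 and 1129, −1.16) fell. MALAT1, a nuclear noncoding RNA, did not pass (0.39, adjusted p = 0.14).

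Part of the genes of protein synthesis and respiration rose, mostly by under 1 on the log2 scale. Of 84 cytosolic ribosomal protein genes by name, 37 rose and 0 fell (55 and 3 unadjusted, median 0.24). RPL37 was 11693, 11300.0 and 10748 at 90 min, against 8042, 5651 and 7455 at 0 min (0.69 ± 0.09, adjusted p = 3.8e-05). RPL9 (0.69), RPS15A (0.71) and RPL7L1 (0.58), the last a relative that acts in ribosome assembly, also rose, while RPL41 did not pass (38209, 43203 and 39169 against 41556, 42307 and 43506). Without replicate 2, RPL9 was at 0.46 and did not pass (adjusted p = 0.1), and RPS15A was at 0.38. Summed over the list, values were 880870 to 904220 at 90 min and 767670 to 784460 at 0 min. Of 78 nuclear genes of oxidative phosphorylation, 18 rose and 0 fell (40 and 0 unadjusted, median 0.29). ATP5PB, a part of ATP synthase, was 1821, 1882 and 1929.9 at 90 min and 1321, 829 and 1369 at 0 min (0.71), and NDUFC1 of complex I was 534, 481 and 573 against 321, 160.5 and 372 (0.98, or 0.61 without replicate 2). COX7B, a subunit of cytochrome oxidase, was 1102, 1306 and 1292 at 90 min and 718, 152 and 686 at 0 min, with replicate 2 far below the others, and rose by 1.54 with that library and 0.81 without it. Of 77 mitochondrial ribosomal protein genes 6 rose and 0 fell (35 and 1 unadjusted), MRPL18 (0.75) among them. Of 54 translation factors 8 rose and 1 fell, EIF5 (−0.48), named after its value was seen. EIF3I, a scaffold of the initiation complex, was 1493, 1518 and 1516 at 90 min, against 776, 885 and 817 at 0 min (0.87 ± 0.06, adjusted p = 1.4e-08). With libraries scaled to ribosomal proteins, which centres that list near 0 by construction and lowers every gene alike, 4 of the 84 ribosomal protein genes, 5 of the 78 respiration genes and 2 of 55 translation factors were called higher and 10, 7 and 12 lower.

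**Figure D4:**
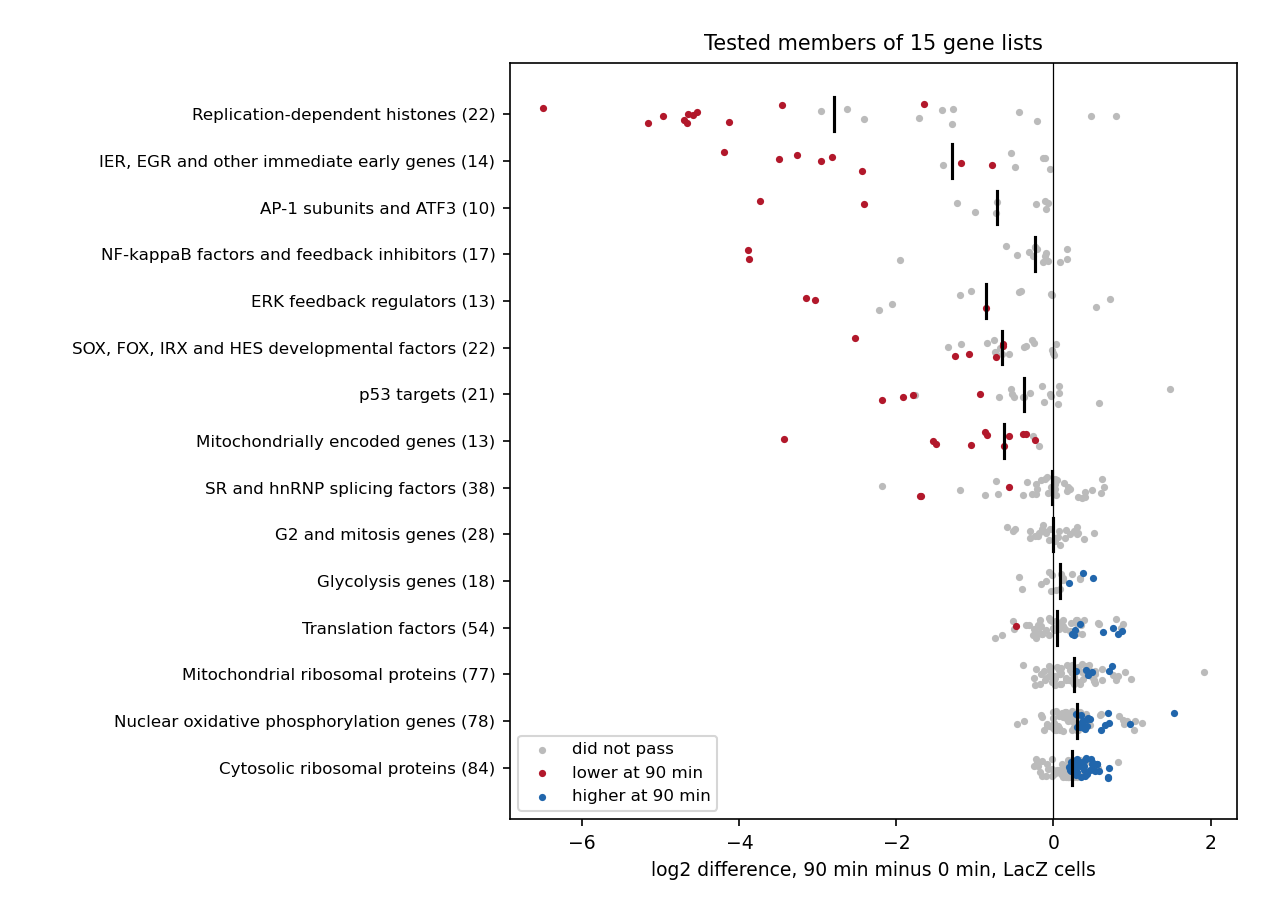
The log2 difference, 90 min minus 0 min, of every tested member of 15 gene lists (number tested in brackets), with a vertical bar at each list's median; red members were lower, blue higher, and grey did not pass. Histones reach furthest to the left (median −2.80), whereas the ribosomal protein (0.24) and respiration (0.29) genes lie just right of 0.

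Some metabolic and folding genes rose, where 3.44% of all genes tested were higher. LDHA, which makes lactate, was 6777, 6829.5 and 6855 at 90 min and 4946, 4677 and 4866 at 0 min (0.50 ± 0.05, adjusted p = 6.6e-07), with a narrow spread. With PGK1 (0.37) and LDHB (0.20) it made 3 rises and 0 falls among 18 glycolysis genes (5 and 0 unadjusted), and GAPDH did not pass (21698, 24419 and 22529 against 21790.0, 25646 and 22543). LDHB did not pass without replicate 2 (adjusted p = 0.1) or at equal totals, and was at −0.0803 on the scale of ribosomal proteins. Of 24 cytosolic chaperones 4 rose and 0 fell (10 and 3 unadjusted), CCT8 (0.60) and HSPB1 (0.31) among them, and of 46 proteasome subunits 3 rose and 0 fell (17 and 2 unadjusted), PSMA1 by 0.79 (0.40 without replicate 2). The metallothionein MT2A, among the most abundant mRNAs of these cells, rose by 0.44 (adjusted p = 9.0e-04), the only 1 of 7 in its list. S100A2 (0.22) and S100A10 (0.42) were 2 rises among 11 S100 genes. Without replicate 2, S100A10 was at 0.24 and S100A2 at 0.13, where it did not pass (adjusted p = 0.18), nor did it at equal totals, and S100A2 was at −0.0647 on the scale of ribosomal proteins.

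Some small RNAs were among the largest rises. SNORD13, the small nucleolar RNA U13 that acts in ribosomal RNA processing, was 1838, 2093 and 1893 at 90 min, against 333, 516 and 367 at 0 min (2.28 ± 0.13, adjusted p = 3.5e-10). SNORD87, another of this class, was 142, 193 and 185 against 26.5, 26.6 and 48.4 (2.37, adjusted p = 3.2e-04). Of 28 small nucleolar RNAs tested, 4 rose (14.3%, against 3.44% of all genes tested) and 0 fell. SNORD118 (3.88) and SNORD46 (2.90), named after their values were seen, were the others. Of 7 small nuclear RNAs tested, 1 rose and 1 fell. The fall was RNU2-1 (−1.34, adjusted p = 0.011), also named after its value was seen. Such RNAs normally have no poly(A) tail, and the values count only what the primer caught. UTP14C, a processed copy of a ribosome assembly gene, was listed at 0 in all 3 libraries at 0 min and was 106, 151 and 55.96 at 90 min. Its reads can be shared with UTP14A, so no fold is given. DNAL1, a dynein light chain gene, was 241, 185 and 232 at 90 min and 28.7, 83.5 and 67.5 at 0 min (1.98, adjusted p = 0.0495, or 0.052 without replicate 2, and it did not pass at equal totals). TMEM59, a Golgi membrane protein gene, was 317, 363 and 615 against 268, 61.6 and 140.5 (1.63, or 1.09 without replicate 2), and did not pass without replicate 2 (adjusted p = 0.14). C22orf39 (185, 141 and 187 against 73.2, 61.4 and 62.4, 1.36) and the antisense RNA RASSF8-AS1 (1.58) complete the 10 largest rises among genes that averaged 50 or more at 90 min and did not overlap.

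Counts of cell identity and cell cycle genes stand beside 2.74% lower and 3.44% higher over all genes tested. Of 28 genes of G2 and mitosis 0 passed in limma, with 2 lower and 5 higher at an unadjusted p under 0.05, and TOP2A, which untangles DNA, was 7674, 5643 and 6781 at 90 min and 6112, 4008 and 6315 at 0 min. Of 29 genes of G1 and S phase only RRM2, a subunit of the enzyme that makes deoxynucleotides, was called higher (0.37), and it did not pass without replicate 2 (adjusted p = 0.14) or at equal totals. DSG2, a desmosomal cadherin, was the 1 rise among 34 epithelial genes (0.46, adjusted p = 6.1e-04), and EPCAM did not pass (0.16, adjusted p = 0.92). EGFR was among the 2 rises of 21 basal genes, and VIM, the intermediate filament vimentin, was the 1 rise among 26 mesenchymal genes (0.28, adjusted p = 0.03). VIM did not pass without replicate 2 (0.16, adjusted p = 0.098) or at equal totals, and was at −0.00114 on the scale of ribosomal proteins. In 8 luminal genes, 11 of the MYC, MAX and MXD network, 15 of the BCL2 family and 4 of the TXNIP group, 0 passed in either direction (1 lower and 0 higher, 1 and 1, 1 and 1, and 0 and 0 unadjusted). CYP51A1 was the 1 rise of 24 cholesterol synthesis genes (0.36), LTBP3 (−0.93) and INHBA the 2 falls of 20 TGF-beta and activin genes, and FJX1 (−0.66) the 1 fall of 18 YAP and TAZ targets. Without replicate 2, CYP51A1 (adjusted p = 0.11) and FJX1 (0.12) did not pass, and 3 of the 18 YAP and TAZ targets fell. CYP51A1 did not pass at equal totals.

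The later times describe the genes that fell by 90 min. Of the 331 genes that fell, 304 had a 0 min mean of at least 50. Their median level was 47.8% of that mean at 90 min, 44.5% at 180 min and 34.8% at 360 min, and 20 of them were below 10% at 90 min. These percents share the 0 min libraries that chose the genes, so they are a description with no test. DUSP6 stood at 11% of its 0 min mean at 90 min, 3.66% at 180 min and 1.94% at 360 min. BTG1, an antiproliferative gene, was at 57.4%, 27.2% and 12.4%, a later fall than that of HNRNPA1, at 30.7%, 35.2% and 35.2%. The 180 min level of HNRNPA1 is uncertain, with a mean of 3728 and an SD of 2100 over 3 libraries. The interval from 180 to 360 min shares no library with the first. There 126 genes were lower (1.04%) and 23 higher (0.19%) at 360 min. Of the 331 genes that fell first, 38 fell again (11.5% of them, 30.2% of the 126) and 0 rose, and of the 416 that rose, 9 rose again and 1 fell. Of those 38, KLF6 changed by −0.75 (adjusted p = 0.03), BTG1 by −1.12 (0.0063), IRX2 by −0.77 (0.0026) and H4C3 by −0.65 (0.014). With the variance taken from the compared libraries alone 0 genes were called in both intervals, against 38 here.

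**Figure D5:**
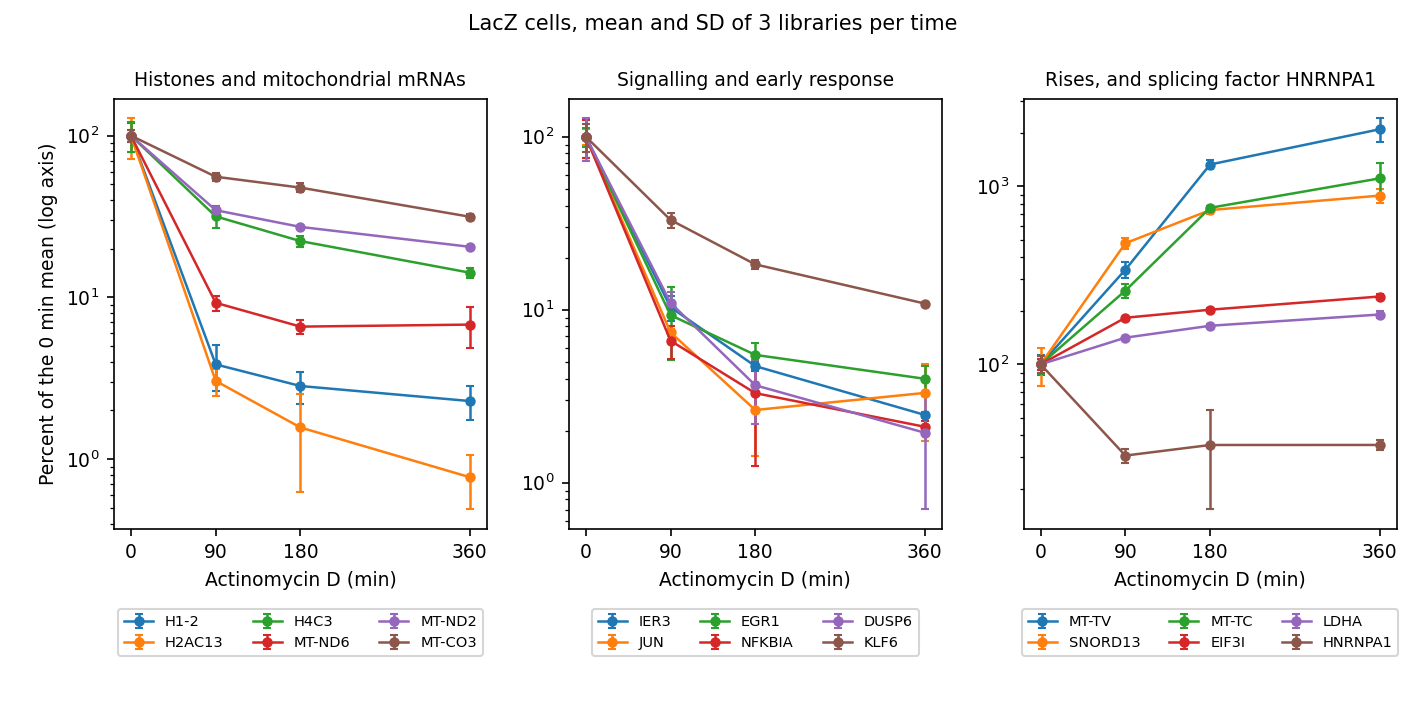
Level in LacZ cells as percent of the 0 min mean on a log axis against minutes of actinomycin D, with points at the mean and bars of 1 SD over 3 libraries (lower bars end at 5% of the mean where the SD is larger). H1-2 and H2AC13 drop below 4% by 90 min and MT-ND6 below 10%. KLF6 and MT-CO3 go on falling to 360 min, and MT-TV rises throughout. HNRNPA1 is near 35% at 180 and 360 min, with a wide bar at 180 min.

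The line that overexpressed RBMS3 gave the same interval in other libraries. There 789 genes were lower at 90 min (6.52%) and 967 higher (7.99%). Of the 331 genes that fell in LacZ cells, 136 also fell in RBMS3 cells (41.1%, or 17.2% of the 789) and 8 rose; of the 416 that rose, 96 also rose (23.1%, or 9.93% of the 967) and 18 fell. Across the 12096 genes the differences of the lines correlated at a Pearson r of 0.362, and genes are not independent replicates. The histones again had 11 falls and 0 rises of 22, with a median of −2.93, and the mitochondrial mRNAs 11 and 0 of 13, with a median of −0.79. The rises by list were repeated only in part. Cytosolic ribosomal protein genes had 8 rises and 3 falls of 84 (median −0.0028), against 37 and 0 in LacZ cells. Glycolysis genes had 0 rises and 10 falls of 18 (median −0.46), against 3 and 0. Nuclear genes of oxidative phosphorylation had 12 rises and 0 falls of 78, and mitochondrial ribosomal protein genes 22 and 0 of 77. H1-2 changed by −4.24 in RBMS3 cells, JUN by −2.99, NFKBIA by −5.06 and IER3 by −3.81. The test of the difference between the lines called 305 genes with a more negative change in RBMS3 cells (2.52%) and 328 with a more positive one (2.71%). Of the 106 genes chosen by the naming rule, 20 were among them. HES1 changed by −6.30 in RBMS3 cells, against −2.52 in LacZ cells, a difference of −3.78 (adjusted p = 0.014), and JUNB by −5.01 against −2.42 (−2.60, adjusted p = 0.013). INHBA changed by 1.58 in RBMS3 cells and −0.57 in LacZ cells (difference 2.15, adjusted p = 3.0e-06). LDHA changed by −0.64 in RBMS3 cells and 0.50 in LacZ cells (difference −1.14, adjusted p = 6.3e-10).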

How the data were processed

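Libraries were made with QuantSeq 3′ mRNA-seq and sequenced as single reads, per the labels' protocols. Per the submitters' processing notes, the tools were DESeq2 (1.32.0), Salmon (1.4.0) and Trim Galore (0.6.6), with no role or order stated. No build or annotation is given in the sources used here. Deposited by the authors were a table of normalized values, a signal per gene and library called the normalized count here, and a file of estimated counts per transcript for each library. For 12 of the 24 libraries, the 3 LacZ 90 min libraries among them, the name of the estimated count file and its record disagreed. Over 11824 genes each of the 24 files matched best the table column of its own name (lowest r 0.840, next best at most 0.741). Values were therefore taken from the table, whose columns were assigned by sample title, and the estimated counts served for depth and this check, with no count test run on them.

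The test was limma (3.58.1, under R 4.3.3), with a mean-variance trend and without robust moderation, applied to log2(normalized count + 1), a scale that understates changes of low genes. All 24 libraries and 8 group means were in the fit. The Benjamini-Hochberg adjustment ran over the 12096 genes with a mean of at least 10, and a gene passed under 0.05. The procedure was tested on simulated data. The 106 named genes are the 20 largest falls and 10 largest rises that passed, averaged 50 or more in the higher group and did not overlap between groups, plus up to 4 such members of each of 42 lists. Up to 2 members of a list that did not pass, those of highest mean, were named beside them. Some genes that the rule selects are not reported here. The members and lists were chosen with earlier results of these data known. Motifs and exons come from GENCODE release 29 (GRCh38), matched by gene symbol. Alternatives were other pseudocounts, filters, scalings, weights, subsets and a replicate block.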

Additional observations from a re-analysis of the deposited data

Results flagged for a closer look

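For 20 of the 106 named genes the change from 0 to 90 min differed between the lines in limma's test of the difference (RBMS3 minus LacZ, adjusted p under 0.05), and this test is what singled them out. The change was more negative in RBMS3 cells for the labile regulators HES1 (−3.78), JUNB (−2.60) and ID1 (−1.57), and by less for the mitochondrial mRNA MT-ND3 (−0.53) and the EGF receptor ligand AREG (−0.37). In HES1 the 90 min value of RBMS3 cells was 10.6 ± 6.79 and that at 0 min 772 ± 59.6 (SD, n = 3 each), and without replicate 2 at 0 min the LacZ change was −3.19 and not −2.52.

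Genes of small rise in LacZ cells differed in the same direction: LDHA (−1.14), PGK1 (−0.90), S100A2 (−0.81), DSG2 (−0.50), DNAJC3 (−0.83), EIF3I (−0.77), and the ribosomal protein genes RPL9 (−1.0), RPS15A (−1.0) and RPL37 (−0.70). C22orf39 (−1.40), RASSF8-AS1 (−2.35), TMEM59 (−2.26) and MT-TC (−0.84) did as well. LDHA was 10463 ± 174 at 90 min and 16352 ± 94.5 at 0 min in RBMS3 cells. The change was more positive in RBMS3 cells for SNHG1 (1.11) and INHBA (2.15). INHBA was 545 ± 172 at 90 min and 177 ± 22.5 at 0 min in RBMS3 cells. Without replicate 2 at 0 min the LacZ change was 0.38 and not 0.71 for RPS15A, 0.46 and not 0.69 for RPL9, and 1.09 and not 1.63 for TMEM59, so for these genes the LacZ and RBMS3 changes lie closer together without that library. RPL9, S100A2, DNAJC3, TMEM59 and INHBA did not pass in LacZ cells without it. The causes of these differences were not tested.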

How the results depend on the processing

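Against 331 lower and 416 higher genes at 90 min in LacZ cells, scaling to the ribosomal protein genes gave 1356 and 75. The 6 compared libraries alone gave 74 and 13, and the LacZ libraries alone 148 and 116. Fewer samples estimate the spread in these fits. In RBMS3 cells the compared libraries alone gave 860 lower and 850 higher genes, against 789 and 967. Deviations of LacZ 0 min replicate 2 from its group mean had an SD over genes of 0.633 in log2. For replicates 1 and 3 the SD was 0.467 and 0.478. The cause of the lower counts was not tested. Leaving out each library in turn gave 179 to 432 lower and 213 to 729 higher. It moved the count by over 1.5 times without 0 min replicate 1 (729 higher), 0 min replicate 2 (213 lower), 0 min replicate 3 (691 higher), 90 min replicate 1 (179 lower, 213 higher) and 90 min replicate 3 (180 lower, 235 higher). Pseudocounts 5 and 0.5, no filter, a filter on the compared libraries, equal totals, array weights and robust moderation stayed within 1.5 times. Deviations of same-numbered libraries correlated weakly (0.0702, 0.116 and 0.0151), which cannot tell whether the replicate numbers pair the samples. With the replicate block 324 genes were lower and 424 higher.

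In RBMS3 cells, 789 lower and 967 higher became 517 to 634 and 705 to 794 with a library left out. From 180 to 360 min in LacZ cells, 126 lower and 23 higher became 468 and 5 scaled to ribosomal proteins, 193 and 12 at equal totals, 1 and 2 with the compared libraries, 44 and 4 with the LacZ libraries, 62 to 87 and 9 to 16 with a library left out, and 15 higher with no filter or 84 with array weights. The lines' difference (305 more negative, 328 more positive) became 138 and 1231 scaled to ribosomal proteins, 154 and 141 with the compared libraries, 218 to 372 and 222 to 390 with a library left out, and 460 more negative with array weights. Falls shared by the lines (136) became 252, 55 and 90 under ribosomal protein scaling, compared libraries and 1 line, and 96 to 138 with a library left out; shared rises (96) became 18, 5 and 36, 63 at equal totals, 155 with array weights and 54 to 137. Falls shared with the later interval (38) became 184, 0 and 15, and 25 to 39. Of the 106 named genes 4 changed sign when scaled to ribosomal proteins, LDHB (−0.0803), S100A2 (−0.0647) and VIM (−0.00114) among them. The cause was not tested where none is given. Of the 106 named genes, 26 did not pass without 0 min replicate 2, 73 with the compared libraries alone and 6 with the block, FJX1 and FOXC2 among them. Depth limits low genes, where the pseudocount compresses changes.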
